A study of Mus musculus with 6 samples.

Results

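The receptor family of interleukin-1, interleukin-18 and interleukin-33 was followed in mouse blood stem and progenitor cells that carry or lack Runx1 and Runx3. The family was taken as 8 genes: Il18r1, Il18rap, Il1r1, Il1r2, Il1rl1, Il1rl2, Il1rap and Sigirr. For a gene to have a value, a probe set had to be paired with exactly 1 gene symbol in the platform annotation, and where a gene had several, the brightest on average was taken. This gave values for 6 of the 8 members, among 19938 genes in all, and each of the 6 had 1 probe set. Il1r1 and Il1rl1 are not analysed here.

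The cells were cKit+Sca1+Lin- (KSL) cells, the fraction of bone marrow that holds blood stem cells and early progenitors, and RNA was measured on Affymetrix Mouse Gene 1.0 ST arrays. The 3 double knockout (DKO) samples had the genotype Runx1fl/fl;Runx3fl/fl;Mx1-Cre+. The 3 wild-type (WT) samples came from littermates of the genotype Runx1fl/fl;Runx3fl/fl;Mx1-Cre-. Both groups thus carry floxed alleles of both genes, and the presence of the Cre transgene cannot be told apart from the deletion. The background was C57BL/6, with a backcross of at least 3 generations given for both groups. Mx1-Cre is driven by an interferon-responsive promoter and is switched on by pIpC, a double-stranded RNA analogue. The labels' protocol gives 600 µg of pIpC on 7 alternate days to mice of 4 weeks, while the sample descriptions call the cells untreated. The sources used here do not give the age at collection. Each WT sample pooled 3 mice, and pooling is not stated for DKO, where the design text counts 6 mice in all. The labels call the samples biological replicates, and with 3 against 3 the number of arrays limits the precision.

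Receptors of this family share a signalling region, the TIR domain, with the Toll-like receptors. A ligand-binding chain recruits an accessory chain, and the paired TIR domains recruit the adaptor MyD88, IRAK kinases and TRAF6, which leads to NF-kappaB and MAP kinases. Interleukin-18 acts on T, NK and other lymphoid cells, and interleukin-1 is known to act on blood stem cells and push them towards myeloid output. Other members damp these signals, either as decoys without a signalling tail or as inhibitory chains.

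Signals are log2 values, so a difference of 1 is a 2-fold change. The lower quartile of the genes on an array lay between 4.89 and 4.97 and the median between 5.98 and 6.05. Correlations between arrays were 0.993 to 0.995 within DKO, 0.989 to 0.991 within WT and 0.976 to 0.98 between groups. Runx1 signal was higher in the samples labelled DKO, at 9.22, 9.37 and 9.28 against 8.49, 8.53 and 8.38 in WT, and Runx3 was at 7.40, 7.40 and 7.34 against 7.53, 7.59 and 7.47. The probe sets average over whole transcripts and can include parts outside the deleted exons, so they do not check the deletion, and DKO below means the samples labelled so. Among markers of the gate and of KSL cells, Kit was higher in DKO (10.49 ± 0.20 against 9.75 ± 0.11, SD, n = 3). Cd34 was at 10.40 ± 0.12 in DKO and 10.37 ± 0.12 in WT (SD, n = 3). Slamf1, Cd48 and Ptprc also rose, by 1.95, 1.46 and 0.76, and Flt3 fell by 1.32. Ly6a, which encodes Sca1, is not analysed here.

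Of the 6 receptors with values, 4 fell in DKO, 1 rose and 1 did not pass the test. Both chains of the interleukin-18 receptor fell, as did the interleukin-36 receptor chain Il1rl2 and the decoy receptor Il1r2, whose call was lost under 9 of 15 alternatives. The shared accessory chain Il1rap rose, and the inhibitory receptor Sigirr did not pass. A call means an adjusted p under 0.05 from limma with Benjamini-Hochberg adjustment over all 19938 genes. By that rule 17.4% of all genes were called, 9.71% higher and 7.69% lower in DKO. The median difference was -0.80 over the 6 receptors and -0.04 over all genes.

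The stretches just upstream of the annotated starts are shown for the 3 receptors that fell the most, because Runx proteins bind DNA at a short core motif. They come from RefSeq (GRCm38.p6, plus strand), run 5′ to 3′ up to the base before the start, and leave out bases that lie in a neighbouring gene. Capitals mark the Runx core motif TGTGGT or, for the other strand, ACCACA.
Il18r1, chr1:40465419-40465551: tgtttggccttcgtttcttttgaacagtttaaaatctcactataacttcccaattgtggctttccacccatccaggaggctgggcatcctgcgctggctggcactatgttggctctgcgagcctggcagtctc
Il18rap, chr1:40515112-40515361: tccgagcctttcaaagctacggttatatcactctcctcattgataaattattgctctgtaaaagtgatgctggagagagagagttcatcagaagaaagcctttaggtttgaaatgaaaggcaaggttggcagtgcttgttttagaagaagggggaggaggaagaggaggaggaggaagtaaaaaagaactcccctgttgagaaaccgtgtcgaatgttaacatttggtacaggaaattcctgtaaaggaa
Il1rl2, chr1:40324339-40324588: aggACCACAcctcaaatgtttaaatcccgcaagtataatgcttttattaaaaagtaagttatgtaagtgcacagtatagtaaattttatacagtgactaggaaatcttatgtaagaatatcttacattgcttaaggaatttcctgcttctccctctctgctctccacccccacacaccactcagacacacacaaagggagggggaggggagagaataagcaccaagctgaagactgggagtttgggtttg

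The Il1rl2 stretch holds the motif once, near its far end, and the Il18r1 and Il18rap stretches do not hold these letters. Il18r1 has further annotated starts, whose windows do not hold the motif either, and only the stretch before the first is printed. Over windows of 250 bases before a start, 1 of the 7 windows of 5 receptors with values held the motif on either strand, beside 14% of all 32851 windows in the table. Sigirr has no window in the table. A match is a run of letters and not a measured site, and binding was not measured.

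Il18r1 encodes the chain that binds interleukin-18. Its log2 signals were 4.39, 4.25 and 4.11 in the DKO samples and 7.04, 6.06 and 6.77 in the WT samples. All DKO values lay below the lower quartile of their arrays and all WT values above the median of theirs, with a wide gap between the groups. The mean was 4.25 ± 0.14 in DKO and 6.62 ± 0.51 in WT (SD, n = 3), and the gene fell by 2.37 in log2 units (SE 0.21, limma adjusted p = 0.000162), a 5.18-fold change with a 95% interval of -2.85 to -1.90. Counted from the most negative, this difference was number 4 of 19938. WT replicate 2 was the lowest WT sample, and without it the difference was -2.66. Signals as dim as those in DKO leave the size of the change uncertain.

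Il18rap encodes the accessory chain that interleukin-18 signalling needs beside Il18r1. Its signals were 5.75, 5.70 and 5.99 in DKO and 7.08, 6.83 and 7.24 in WT. The groups did not overlap, and WT replicate 2 was again the lowest WT sample. The mean was 5.81 ± 0.16 against 7.05 ± 0.21 (SD, n = 3). Il18rap fell by 1.24 (SE 0.12, limma adjusted p = 0.000299), which is 2.35-fold, with an interval of -1.51 to -0.96. Here all samples of both groups were above the lower quartile of their arrays. A fall of at least 2-fold was called for 0.552% of all genes, and these 2 receptors were the members among them.

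Il1rl2 encodes the receptor chain that binds the interleukin-36 cytokines and pairs with Il1rap. Its signals were 4.33, 4.90 and 4.55 in DKO and 5.27, 5.73 and 5.68 in WT. Every DKO sample was below every WT sample and below the lower quartile of its array. Il1rl2 fell by 0.97 (SE 0.16, limma adjusted p = 0.00377), with an SD of 0.29 in DKO and 0.25 in WT (n = 3).

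Il1r2 encodes the decoy receptor that binds interleukin-1 without signalling. Its signals were 4.75, 3.94 and 4.46 in DKO and 4.90, 4.99 and 5.16 in WT. The groups were separated by a narrow gap, and all samples except WT replicates 2 and 3 lay below the lower quartile of their arrays. Il1r2 fell by 0.63 (SE 0.18, limma adjusted p = 0.0386), from 5.02 ± 0.13 to 4.39 ± 0.41 (SD, n = 3). Over the 15 alternatives its adjusted p ran from 0.0174 to 0.118. Without DKO replicate 2, the lowest sample, the difference was -0.41 (adjusted p = 0.0791). The call did not hold without DKO replicate 3 either (adjusted p = 0.089) nor without WT replicate 1 (0.0509), 2 (0.0711) or 3 (0.118).

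Il1rap encodes the accessory chain that receptors for interleukin-1, interleukin-33 and interleukin-36 share. Its signals were 6.71, 6.63 and 6.81 in DKO and 6.32, 6.15 and 6.09 in WT. All 3 DKO samples were above all WT samples, in the opposite direction to the chains above. Il1rap rose by 0.53 (SE 0.10, limma adjusted p = 0.00538), which is 1.45-fold, from 6.19 ± 0.12 to 6.72 ± 0.09 (SD, n = 3).

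Sigirr encodes a single-domain receptor that damps interleukin-1 and Toll-like receptor signals. Its signals were 7.05, 7.31 and 7.07 in DKO and 7.34, 7.13 and 7.45 in WT, and the groups overlapped. The difference was -0.16 (SE 0.11, limma adjusted p = 0.371) with a 95% interval of -0.42 to 0.09. The interval holds 0 and also falls of up to 0.42, so a small fall is not excluded by these arrays. DKO and WT values did not overlap for 5 of the 6 receptors, beside 35.8% of all genes. In 4 of them the DKO values were the lower ones, beside 19.6% of all genes.

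**Figure D1:**
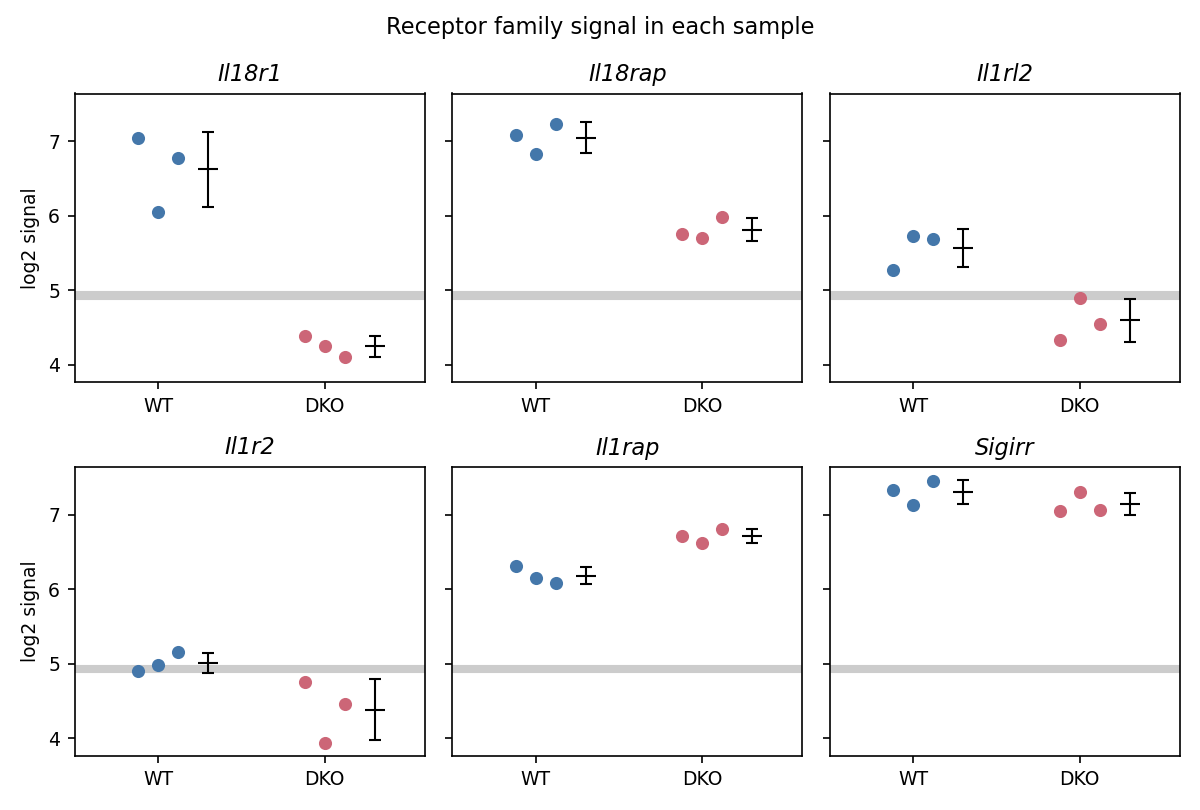
Log2 signal of the 6 receptors in each of 3 WT (blue) and 3 DKO (red) samples, with the group mean and SD beside the points and the range of the arrays' lower quartiles as a grey band. Il18r1 goes from above the band in WT (6.06 to 7.04) to below it in DKO (4.11 to 4.39), Il1rap is higher in DKO, and the groups overlap for Sigirr.

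Some of these receptors lie side by side. In RefSeq's order of protein-coding genes on chromosome 1, Map4k4 is followed by Il1r2, Il1r1, Il1rl2, Il1rl1, Il18r1, Il18rap, Slc9a4, Slc9a2, Mfsd9 and Tmem182, while Il1rap is on chromosome 16 and Sigirr on chromosome 7. The 4 receptors of this run that have values all fell, beside 7.69% of all genes called lower. Among them, the call of Il1r2 was lost under 9 of 15 alternatives. The 2 receptors that lie on other chromosomes rose or did not pass. On the Il1r2 side, the kinase gene Map4k4 fell by 0.47 (8.06, 7.94 and 8.02 in DKO against 8.67, 8.49 and 8.25 in WT, limma adjusted p = 0.0209). Its call was lost without any one of the DKO replicates, with an adjusted p of up to 0.075. On the Il18rap side, the sodium-proton exchanger genes Slc9a4 and Slc9a2 differed by -0.03 and -0.13, Mfsd9 by 0.13 and Tmem182 by -0.21, and none of these passed (adjusted p = 0.896, 0.521, 0.466 and 0.302). Tgfbrap1, listed with the neighbours, differed by 0.08 without passing (adjusted p = 0.563). The difference between the receptors and their neighbours was not tested.

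**Figure D2:**
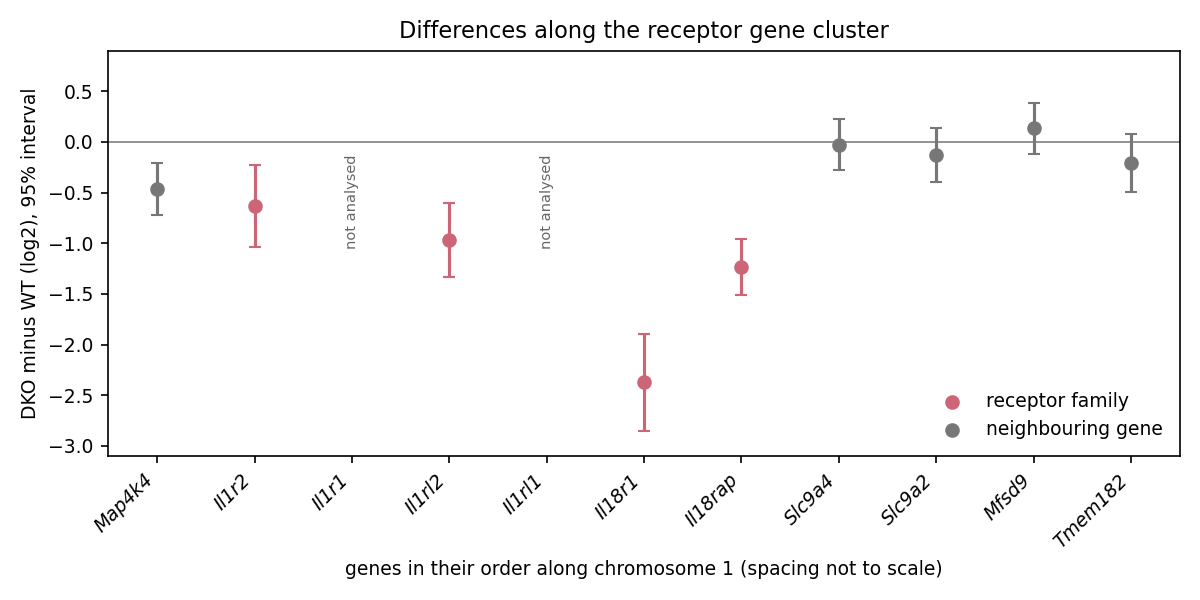
DKO minus WT difference in log2 signal, with its 95% interval, for genes in their order along chromosome 1, with receptors in red and neighbouring genes in grey. The differences go from -0.63 for Il1r2 to -2.37 for Il18r1 and -1.24 for Il18rap, and the interval of Slc9a4, the gene after Il18rap, holds 0.

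The ligands of these receptors were not called, while 17.4% of all genes were. Of 11 genes for ligands and soluble antagonists 0 rose and 0 fell by limma, and 0 had an unadjusted p under 0.05. Over all 19938 genes, 2987 were higher and 3181 lower at that unadjusted threshold. The median difference of the list was -0.13. The smallest p-values were those of Il33, an alarmin of damaged tissue, at 4.08 ± 0.09 in DKO and 4.25 ± 0.05 in WT (adjusted p = 0.215), and Il1b, the secreted interleukin-1 of myeloid cells, at 4.44 ± 0.38 and 4.78 ± 0.27 (SD, n = 3, adjusted p = 0.255). Il18 differed by -0.15 and its soluble antagonist Il18bp by 0.08 (adjusted p = 0.562 for both). For 6 of the 11 genes, Il33 among them, the signal was below the lower quartile on all arrays. The same held for Il1rapl1 and Il1rapl2, brain-expressed relatives of Il1rap, which differed by -0.07 and -0.04 (adjusted p = 0.655 and 0.897).

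Of 10 genes that make and release the active cytokines, 3 rose, 1 fell and 6 did not pass, with a median of 0.14, beside the 17.4% called over all genes. Casp1, the protease that cuts the precursors of interleukin-1 beta and interleukin-18, rose by 0.81 (8.62 ± 0.12 against 7.80 ± 0.05, SD, n = 3, limma adjusted p = 0.000551). Casp4, which senses bacterial lipopolysaccharide inside cells, rose by 1.09 (adjusted p = 0.000451). Nlrc4, an inflammasome gene, rose by 1.44 from a WT signal of 4.36 that is below the lower quartiles (adjusted p = 0.00024). The DNA sensor gene Aim2 fell by 0.35 (adjusted p = 0.0334), a call that 6 of 17 alternatives lost, among them the fits without any one of the DKO replicates or without WT replicate 1 or 3 (adjusted p of up to 0.117 over all alternatives). Pycard, the adaptor that joins sensors to Casp1, differed by 0.16 without passing (adjusted p = 0.327).

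Downstream of the receptors, genes moved in both directions. Of 17 adaptors and kinases, 4 rose, 2 fell and 11 did not pass, with a median of -0.01. Over all genes, 9.71% were called higher and 7.69% lower. Tab2, which links TRAF6 to the kinase TAK1, rose by 0.70 (limma adjusted p = 0.000604). The ubiquitin ligase genes Peli1 and Traf6 rose by 0.68 and 0.42 (adjusted p = 0.00458 and 0.0095). Calls close to the threshold were Map3k3 at 0.53 (adjusted p = 0.0479), Tab1 at -0.32 (0.0463) and Ube2v1 at -0.31 (0.0377). Each was lost under several alternatives, the omission of single replicates among them, with adjusted p of up to 0.158 for Map3k3 and Tab1. Ube2v1 was at 0.15 with another of its probe sets (adjusted p = 0.724), so its direction depends on the probe set. Myd88, the adaptor itself, was at 6.95 ± 0.11 in DKO and 7.15 ± 0.48 in WT (SD, n = 3, adjusted p = 0.563).

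In the NF-kappaB and MAP kinase arm, 2 of 13 genes rose, 4 fell and 7 did not pass, with a median of -0.11. The shares over all genes were 9.71% higher and 7.69% lower. Mapkapk2, a kinase downstream of p38, fell by 0.61 and Ikbkb, the kinase that marks NF-kappaB inhibitors for destruction, by 0.50 (limma adjusted p = 0.00594 and 0.00376). Nfkbia, one of these inhibitors and a target of NF-kappaB, fell by 0.36 and Nfkb2 by 0.40 (adjusted p = 0.0188 and 0.0319). The kinase genes Mapk8 and Mapk9 rose by 0.47 and 0.43 (adjusted p = 0.0128 and 0.0263). The calls of Nfkbia, Nfkb2, Mapk8 and Mapk9 were each lost without DKO replicate 3, among other settings, with adjusted p of up to 0.0673, 0.123, 0.0599 and 0.142. With the trend over gene span and brightness taken out, Mapk8 was at 0.31 and Mapk9 at 0.27, and neither passed.

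Of 16 genes that these cytokines are known to induce in other cells, 0 rose, 1 fell and 15 did not pass, with a median of -0.09. The share called over all genes was 17.4%. At an unadjusted p under 0.05 the counts were 2 higher and 3 lower, beside 2987 higher and 3181 lower of all 19938 genes. The fall was that of Socs3, a feedback inhibitor of cytokine receptors, by 0.35 (limma adjusted p = 0.0417). It was lost under 11 of 17 alternatives, among them the fits without any one of the DKO replicates and without WT replicate 1 or 3 (adjusted p of up to 0.124). Nfkbiz, a target of MyD88 signalling, was at 6.73 ± 0.09 in DKO and 6.73 ± 0.08 in WT, and Tnfaip3 at 6.25 ± 0.38 and 5.84 ± 0.07 (SD, n = 3, adjusted p = 0.998 and 0.124).

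**Figure D3:**
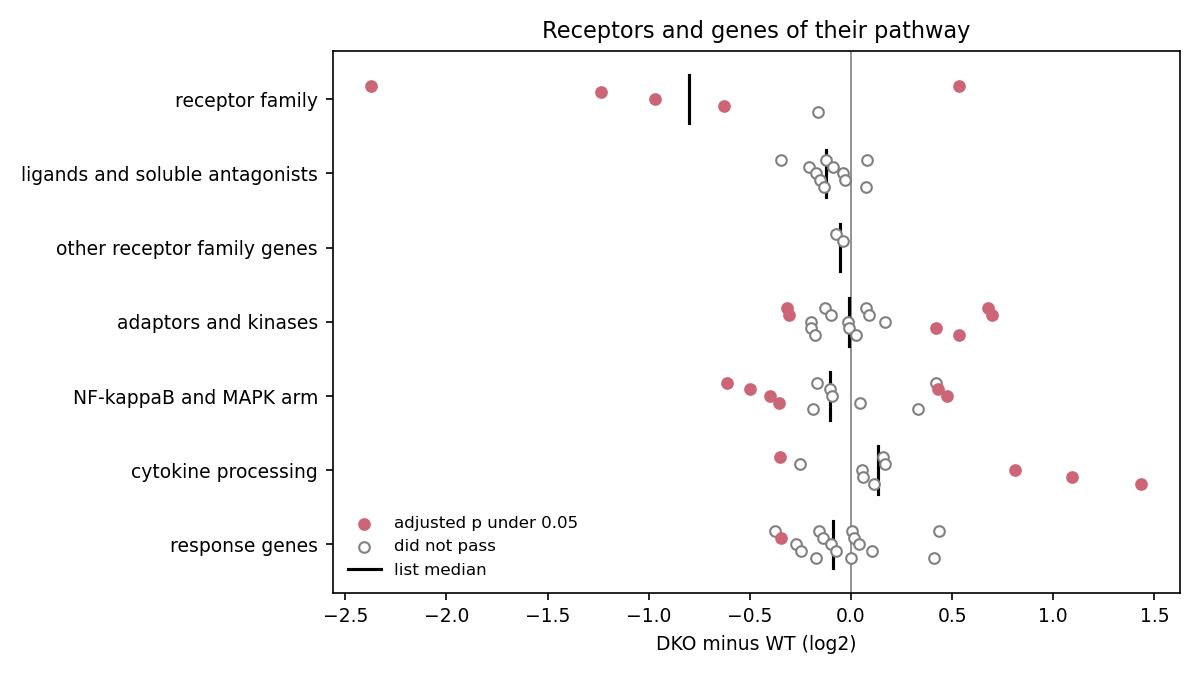
DKO minus WT difference in log2 signal for each gene with a value (points, filled where the adjusted p was under 0.05) and the median of each list (black line). The receptors spread from -2.37 to 0.53, no ligand is filled, and the filled points of the signalling lists lie on both sides of 0.

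Since interleukin-18 receptor chains mark lymphoid cells, the markers of such cells are given beside them. In bulk RNA, fewer cells of a type and less RNA per cell cannot be told apart. The counts stand beside 9.71% of all genes called higher and 7.69% lower. Among 15 genes of T and NK cells, 0 rose and 1 fell, and the summed linear signal of the list was 571 to 582 in DKO and 1008 to 1062 in WT. The fall was that of Nkg7, a cytotoxic granule gene (7.13 ± 0.13 against 9.15 ± 0.05, SD, n = 3, limma adjusted p = 8.42e-06), and without it the sums of the other 14 genes were 429 to 444 and 442 to 491. On all arrays of both groups 7 of the 15 genes were below the lower quartile, among them Cd3d, Cd3g, Klrb1c and Ncr1. Others were above it on all arrays and did not pass. They were Cd3e (6.18 ± 0.07 in DKO and 6.12 ± 0.06 in WT), Cd8a (5.63 ± 0.10 and 5.64 ± 0.15), Prf1 (6.63 ± 0.09 and 6.75 ± 0.03) and Tbx21 (5.18 ± 0.04 and 5.41 ± 0.08, SD, n = 3). For Prf1 and Tbx21 all DKO values lay below all WT values (limma adjusted p = 0.401 and 0.102). Of 9 markers of lymphoid-primed progenitors 0 rose and 4 fell, namely Dntt, Vpreb1, Flt3 and Notch1, by 2.50, 1.59, 1.32 and 0.63 (adjusted p = 0.000788, 0.0015, 0.000434 and 0.00363). The summed signal of that list was 1319 to 1752 in DKO and 2812 to 3266 in WT, and Rag2 was below the lower quartile on all arrays. At an unadjusted p under 0.05, 0 genes of either list were higher. By that rule 3 T and NK cell genes (Nkg7, Gzmb and Tbx21) and 6 progenitor markers were lower. Over all 19938 genes, 2987 were higher and 3181 lower at the same unadjusted threshold. The part of these cells in the fall of Il18r1 and Il18rap was not tested.

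Markers of other cells that use this family were counted in the same way, beside 9.71% of all genes higher and 7.69% lower. Of 8 genes of group 2 innate lymphoid cells 0 rose and 0 fell, with sums of 445 to 475 in DKO and 423 to 500 in WT, and Klrg1 was below the lower quartile on all arrays. By unadjusted p under 0.05, Gata3 differed by 0.40 and Il7r by -0.42. Of 12 mast cell and basophil genes 4 rose and 3 fell, with sums of 3056 to 3699 in DKO and 947 to 1050 in WT, and without Cpa3 1190 to 1571 and 768 to 858. Cpa3, Ms4a2, Slc18a2 and Hdc rose by 3.43, 2.24, 1.46 and 1.27, and Mcpt8, Prss34 and Fcer1a fell by 1.32, 0.82 and 0.68, where the call of Fcer1a was lost under 7 of 15 alternatives, among them the fits without single DKO replicates (adjusted p of up to 0.126). The mast cell protease genes Tpsab1, Cma1 and Mcpt4 were below the lower quartile on all arrays. Of 10 neutrophil and monocyte genes, cells known for Il1r2, 1 rose and 0 fell. At an unadjusted p under 0.05, 2 were higher and 3 were lower, beside 2987 higher and 3181 lower of all 19938 genes. The one that rose was Cxcr2, by 3.26, and the sums were 885 to 990 in DKO and 468 to 748 in WT. Without Cxcr2 the sums of the other 9 genes were 387 to 409 in DKO and 423 to 670 in WT, lower in DKO, with Ltf and Ly6g below the lower quartile on all arrays. The part of these cells in the values of Il1r2 and Il1rap was not tested.

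The genes whose signals over the 6 arrays were most like those of Il18r1 were Xrcc5, Keap1, Aldh1a1, Card19 and Lamc1, with Pearson correlations of 0.998, 0.998, 0.997, 0.996 and 0.996. These describe 6 arrays that fall into the 2 groups, so any gene that differs between the groups with little spread correlates highly. Aldh1a1, which encodes a retinaldehyde dehydrogenase, was at 5.83, 5.73 and 5.70 in DKO and at 7.46, 6.71 and 7.23 in WT. WT replicate 2 was the lowest of its group as for Il18r1, a likeness favoured by the choice of genes by correlation. Aldh1a1 fell by 1.38 (limma adjusted p = 0.000688). Xrcc5, a DNA end-joining gene, and Keap1, an oxidative stress sensor gene, fell by 0.46 and 0.43, Card19 by 0.58 and the laminin chain gene Lamc1 by 0.44 (adjusted p = 0.00818, 0.00765, 0.00265 and 0.00808).

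**Figure D4:**
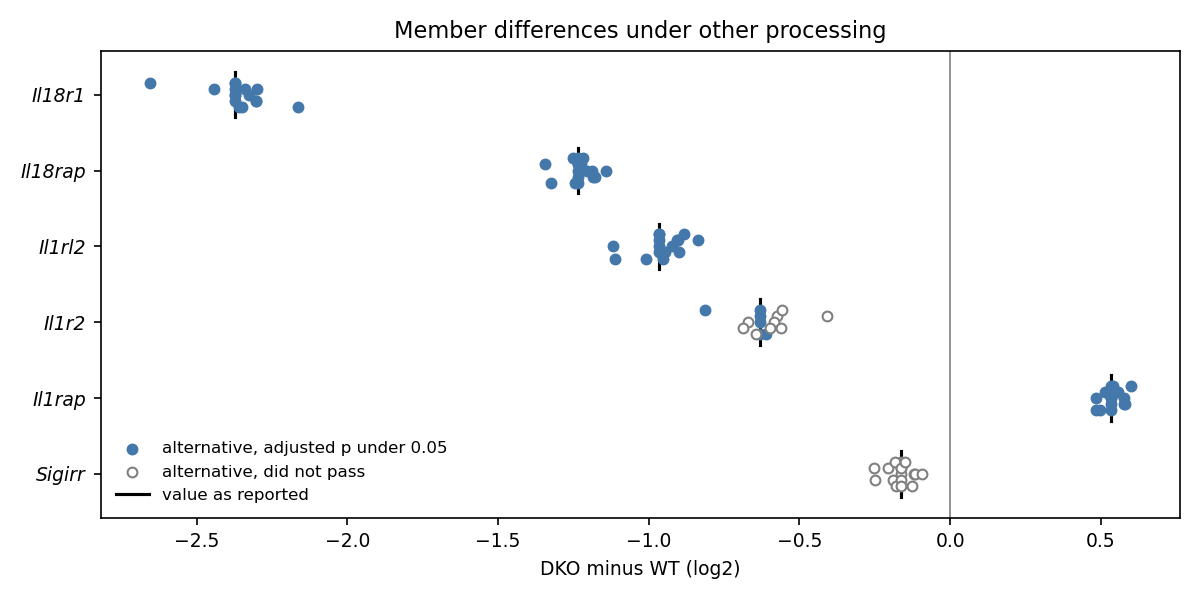
DKO minus WT difference in log2 signal of each receptor under the alternative settings (points, filled blue where the adjusted p was under 0.05) and as reported (black line). The points of Il18r1 stay between -2.66 and -2.16, those of Il1rap between 0.48 and 0.60, and most of those of Il1r2 are open.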

How the data were processed

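The deposited values were log2 signals of 35556 probe sets on 6 arrays, at the level of whole genes, as the sample titles name RMA while the design text names MAS 5.0. The submitters' processing notes name Affymetrix Expression Console 1.0. The sources used here give neither background settings nor annotation version nor genome build. RMA equalises arrays, so a change shared by most genes would not show. Of the probe sets, 21789 had 1 gene symbol, 1621 several and 12146 none.

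DKO and WT were fitted in R 4.3.3 by limma 3.58.1 (lmFit, eBayes, default settings, two-sided) without a filter on dim genes, over 19938 genes. No array duplicated another (smallest SD of a difference between arrays 0.186 over these genes). Tests on simulated data preceded the fit. The members and lists were chosen with earlier results of these data known. Named genes were the members, Runx1 and Runx3, called list genes, or up to 2 with the smallest p where none was called, cluster neighbours, called markers and the 5 genes most like Il18r1. Outside this rule, Il18, Il18bp, Pycard, Myd88, Nfkbiz, Tnfaip3, Gata3, Il7r, Cd34 and further markers, and the sums without 1 gene, were chosen after their values were seen. Older symbols (Il1f5 and the like) stand for the interleukin-36 genes. Alternatives were other normalisations, filters, probe sets, limma settings, thresholds, the replicate number as a block and the omission of each sample.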

Additional observations from a re-analysis of the deposited data

How the results depend on the processing

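At an adjusted p under 0.05, the calls of Il18r1, Il18rap, Il1rl2 and Il1rap held under every alternative fit that kept the gene, 16 or 17 each. Sigirr passed under none of 17. Each receptor had 1 probe set, so the alternatives on probe sets could not change its difference. The filters on dim genes left it unchanged where they kept the gene. The filter on the dimmest 50% of genes removed Il18r1, Il1rl2 and Il1r2, so 1 receptor was then called lower, and with at least a 2-fold change 2 were called lower and 0 higher. Over all genes, 1058 rose and 588 fell at an adjusted p under 0.01, and 222 and 110 with at least a 2-fold change. Counts over all genes ran from 1250 to 1868 higher and 843 to 1388 lower when single samples were left out. The lower count was 843, 876 and 854 without DKO replicates 1, 2 and 3, and the higher count 1250 without DKO replicate 3. Of the receptors 3 or 4 fell and 1 rose in those fits. Of 75 pathway and neighbouring genes 9 rose and 9 fell, beside 9.71% and 7.69% of all genes. The lower count was 5 with median centring, 5 with the replicate block, 2 at an adjusted p under 0.01 and 0 with at least a 2-fold change, where 2 were higher, and 2 to 10 with single samples left out (3, 3 and 2 without DKO replicates 1, 2 and 3, and 4 without WT replicate 3). The causes were not tested. Median centring moved the split of calls to 2254 higher and 1121 lower and removal of the span trend to 1513 and 1619, from 1936 and 1533. Ube2v1 was at 0.15 with the probe set of the highest SD.

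The replicate numbers did not pair the samples, as deviations of same-numbered samples correlated at -0.01, -0.10 and -0.04. With the replicate block 1772 genes rose and 1272 fell, and 1 receptor rose and 4 fell.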
